A study of Caenorhabditis elegans with 48 samples.

Results

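The nucleotide synthesis genes described here are 10 of the 19885 genes measured in whole adult *C. elegans*: *tyms-1*, *dhfr-1*, *dut-1*, *rnr-1*, *rnr-2*, *umps-1*, *upp-1*, *cdd-1*, *cdd-2* and *mel-32*. They were taken by name, as thymidylate, deoxynucleotide and pyrimidine salvage genes, because the worms were kept on FUdR, a drug that acts on thymidylate synthase. The set was also chosen by the course of *tyms-1* over the day, which changed in mock worms and not in K-NAA worms. The values of *tyms-1* by time and by condition are therefore given as a description with no test, and the tests below are those of the other 9 genes. All 10 genes were measured in all 48 libraries.

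K-NAA worms and mock worms were of the same strain, JDW259. All of them carried a TIR1 transgene driven by the *eft-3* promoter and an nhr-23 allele fused to the degron AID*, TEV and 3xFLAG, so that the auxin analog K-NAA directs breakdown of the NHR-23 protein in the cells that make TIR1. K-NAA worms were moved to plates with 0.4 mM K-NAA, and mock worms to plates without it, 12 h before sampling according to the labels. The Methods give another concentration of K-NAA, and which of them applies was not settled here. The Methods describe a single transfer of all cultures ahead of the first time point, in which case the time on K-NAA and the age of the worms both grow with the time of day and cannot be told apart from it. All worms were adults that had been put on FUdR plates as L4 larvae after temperature cycles, and were sampled in constant conditions at 12 time points from CT1 to CT23 (circadian time in h), every 2 h. With 2 culture plates for each condition and time, this gave 24 K-NAA and 24 mock libraries of polyA RNA. Each library holds RNA of many pooled worms, and no K-NAA libraries of worms lacking the degron were analysed here, so K-NAA itself and the loss of NHR-23 cannot be told apart.

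Thymidylate synthase, the product of *tyms-1*, methylates dUMP to dTMP with a folate as the carbon donor. Dihydrofolate reductase (*dhfr-1*) restores the spent folate and serine hydroxymethyltransferase (*mel-32*) reloads it, while dUTPase (*dut-1*) makes dUMP and keeps uracil out of DNA. Ribonucleotide reductase (*rnr-1*, large subunit, and *rnr-2*, small subunit) supplies the deoxynucleotides. FUdR is converted in cells to a nucleotide that binds and blocks thymidylate synthase, which is why it is given to adult worms to stop the production of progeny. In the adult worm the dividing cells are those of the germline, the somatic cells being postmitotic.

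The deposited values are TPM, a level scaled to transcript length and to the same total in each library. They keep no depth, so the spread between libraries is the only measure of precision. Between 15239 and 16095 genes were above 0 in the K-NAA libraries and between 15165 and 15932 in the mock libraries, and plates of the same time point and condition correlated at 0.979 to 0.989 across genes. *nhr-23* mRNA was 27.4 to 34.5 TPM in K-NAA libraries (median 31.8) and 26.5 to 40.5 TPM in mock libraries (median 33.9), but the degron acts on the protein, so this checks neither the depletion nor the labels.

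In the WBcel235 assembly, *tyms-1* occupies bases 5138250 to 5139382 of chromosome I, plus strand, with 1 coding transcript. *dhfr-1* (8736213 to 8737038) and *dut-1* (9585417 to 9587203) are on the plus strand of the same chromosome I. *rnr-2* (4093308 to 4094921), *mel-32* (6440145 to 6443000), *upp-1* (7641034 to 7643101), *rnr-1* (9225339 to 9228798) and *umps-1* (10355837 to 10357648) are on the minus strand of chromosome III. *cdd-2* is on the minus strand of chromosome IV (7547118 to 7547893), and *cdd-1* on that of chromosome X (8208748 to 8211149). The annotation places protein-coding genes over *dut-1*, *rnr-2* and *upp-1* on the opposite strand, and *pam-1* over *cdd-2* on the same strand, so transcripts of *cdd-2* and *pam-1* may share reads.

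The level of the 10 genes spanned a wide range. In K-NAA worms the mean level was highest for *rnr-2*, at 494.5 ± 45.7 TPM, followed by *mel-32* (251.7 ± 18.9 TPM), *dut-1* (231.9 ± 16.3 TPM) and *rnr-1* (156 ± 21.1 TPM). *dhfr-1* (110.5 ± 8.02 TPM), *upp-1* (109 ± 6.24 TPM) and *tyms-1* (106 ± 6.50 TPM) lay within the spread of each other, and *cdd-2* (89.1 ± 7.27 TPM) and *umps-1* (66.1 ± 3.999 TPM) lay below them (SD, n = 24 K-NAA libraries). *cdd-1*, a cytidine deaminase gene, was measured at 2.31 ± 0.468 TPM (SD, n = 24). In mock worms the order was the same except that *dut-1* (258 ± 21.2 TPM) and *mel-32* (256 ± 18.2 TPM), which lay within the spread of each other, changed places (SD, n = 24). *cdd-1* had the largest relative spread, with a coefficient of variation of 20.2% in K-NAA and 25.4% in mock libraries, against 5.71 to 13.5% in K-NAA and 4.84 to 11.7% in mock libraries for the other 9 genes.

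**Figure D1:**
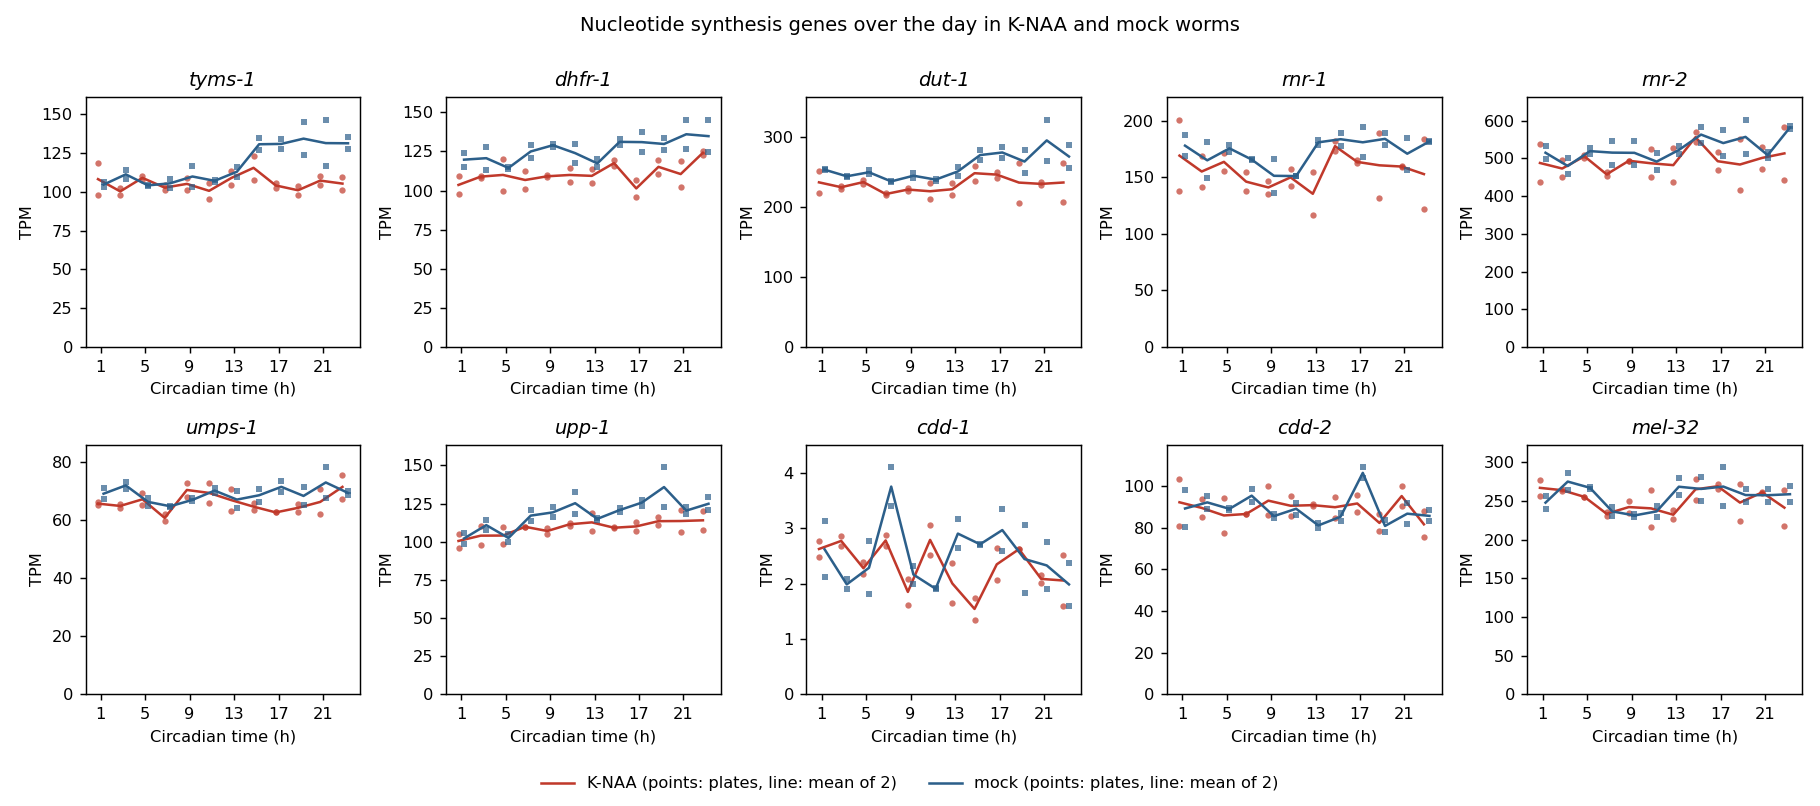
Level in TPM of the 10 genes by circadian time (h), with each plate as a point and the mean of the 2 plates as a line, K-NAA in red circles and mock in blue squares, each axis starting at 0. For *tyms-1* the K-NAA line lies below the mock line at 10 of the 12 time points, with the widest gaps from CT17 on, and the mock means are 130.7 TPM or more from CT15 on. For *dhfr-1* and *dut-1* the K-NAA line lies below the mock line at all 12 time points.

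The course of *tyms-1* over the day differed between the conditions, which is the pattern it was chosen for. From CT1 to CT11 the K-NAA libraries held 104 ± 6.38 TPM and the mock libraries 107 ± 4.49 TPM (SD, n = 12 each), and the values of the conditions overlapped. From CT13 to CT23 the K-NAA libraries held 107 ± 6.61 TPM and the mock libraries 129 ± 11.2 TPM (SD, n = 12 each). The late K-NAA mean thus stayed within the spread of the early K-NAA libraries, although a plate of CT15 held 123 TPM, above the highest early plate (118 TPM). The late mock mean was above all 12 early mock libraries, of which the highest held 117 TPM.

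The increase over the day in mock worms came between CT13 and CT15. The K-NAA plates of *tyms-1* held 114 and 104 TPM at CT13, 123 and 108 TPM at CT15, 102 and 106 TPM at CT17, 104 and 98.0 TPM at CT19, 104 and 110.3 TPM at CT21, and 109 and 101 TPM at CT23. The mock plates held 116 and 109.8 TPM at CT13, 127 and 135 TPM at CT15, 128 and 134 TPM at CT17, 124 and 145 TPM at CT19, 146 and 116 TPM at CT21, and 135 and 127 TPM at CT23. At each of the 5 time points from CT15 on both K-NAA plates were below both mock plates. The log2 difference of K-NAA minus mock was -0.18 at CT15, -0.33 at CT17, -0.41 at CT19, -0.28 at CT21 and -0.32 at CT23. Before that it was 0.04 at CT1, -0.15 at CT3, 0.07 at CT5, -0.04 at CT7, -0.06 at CT9, -0.09 at CT11 and -0.05 at CT13, so that K-NAA was lower at 10 of the 12 time points in all. Over the day this gave a difference of -0.15 on the log2(TPM + 0.5) scale, most of which lay in the late time points that chose the gene.

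The late level of *tyms-1* in mock was higher than the early level in both sets of plates, both of which were among the values that chose it. In K-NAA worms, the plates numbered 1 held 109.5 ± 7.89 TPM late and 106 ± 7.53 TPM early, and the plates numbered 2 held 105 ± 4.45 TPM late and 103 ± 5.28 TPM early (SD, n = 6 each). In mock worms, the plates numbered 1 held 129 ± 10.4 TPM late and 106 ± 4.32 TPM early, and the plates numbered 2 held 128 ± 12.9 TPM late and 108 ± 4.77 TPM early (SD, n = 6 each). A 24 h cosine fitted to each condition by itself had a peak-to-trough range of 0.04 in K-NAA and of 0.37 in mock on the log2 scale, with the mock peak at CT18.7. The mock range was 0.22 when a linear drift was fitted beside the cosine.

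Of the genes that work beside thymidylate synthase, *dhfr-1* and *dut-1* were lower in K-NAA and *mel-32* did not pass the test. Levels were compared on the log2(TPM + 0.5) scale with limma, with the time point as a factor, and p-values were adjusted over the 13813 genes that averaged 0.25 TPM or more, which all 10 genes did. *dhfr-1* held 95.9 to 125 TPM in K-NAA libraries (median 109.7 TPM) and 113 to 145 TPM in mock libraries (median 126 TPM), so that the ranges overlapped, and it was lower at 12 of the 12 time points. The log2 fold change, K-NAA over mock, was -0.19 (SE 0.03, adjusted p = 6.14e-07 by limma). *dut-1* held 206 to 263 TPM in K-NAA libraries (median 232 TPM) and 236 to 324 TPM in mock libraries (median 252 TPM), and its log2 fold change was -0.15 (SE 0.03, adjusted p = 2.45e-05 by limma), with lower K-NAA means throughout the 12 time points. *mel-32* held 216 to 279 TPM in K-NAA libraries (median 256 TPM) and 230.0 to 293.5 TPM in mock libraries (median 254 TPM). Its log2 difference was -0.03 (95% interval -0.08 to 0.03, adjusted p = 0.528 by limma), and it was above 0 after median ratio rescaling (0.01).

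Both subunits of ribonucleotide reductase were lower in K-NAA over all plates. *rnr-1* held 116 to 200.6 TPM in K-NAA libraries (median 156 TPM) and 136 to 194 TPM in mock libraries (median 178 TPM), and its log2 fold change was -0.15 (SE 0.04, adjusted p = 0.00991 by limma). *rnr-2* held 417 to 583 TPM in K-NAA libraries (median 495.5 TPM) and 459.8 to 602 TPM in mock libraries (median 515 TPM); its log2 fold change was -0.09 (SE 0.03, adjusted p = 0.0323 by limma). The ranges overlapped widely for both genes, although the mean of the 2 plates was the lower one in K-NAA at every one of the 12 time points. The call of *rnr-2* was lost after median ratio rescaling (-0.06) and after quantile normalization (-0.05). It was also lost when any of 7 single libraries was left out, namely the K-NAA plates numbered 2 of CT1, CT13, CT19 and CT23 and the mock plates numbered 2 of CT7, CT17 and CT19 (-0.08 in each case).

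Uridine phosphorylase and UMP synthase genes were lower in K-NAA as well, the second of them at the edge of the threshold. *upp-1*, which encodes the salvage enzyme uridine phosphorylase, held 96.2 to 121 TPM in K-NAA libraries (median 109.5 TPM) and 98.5 to 149 TPM in mock libraries (median 118.8 TPM), and fell by 0.11 on the log2 scale (SE 0.02, adjusted p = 0.000319 by limma), being lower at 11 of the 12 time points. *umps-1*, the UMP synthase gene that also joins pyrimidine bases to phosphoribose, held 59.5 to 75.5 TPM in K-NAA libraries (median 65.4 TPM) and 63.9 to 78.0 TPM in mock libraries (median 68.9 TPM). Its log2 fold change of -0.06 (SE 0.02) was close to the threshold (adjusted p = 0.0467 by limma, with 9 of the 12 time points below mock). This call was lost when any of 31 of the 48 single libraries was left out (-0.06 to -0.05), and after quantile normalization the value was 0.002.

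The cytidine deaminase genes *cdd-1* and *cdd-2*, whose enzymes turn cytidine into uridine, did not pass. *cdd-2* held 75.3 to 104 TPM in K-NAA libraries (median 87.7 TPM) and 78.0 to 109 TPM in mock libraries (median 87.7 TPM), with a log2 difference of 0.004 (95% interval -0.06 to 0.07, adjusted p = 0.946 by limma). *cdd-1* held 1.34 to 3.06 TPM in K-NAA libraries (median 2.43 TPM) and 1.61 to 4.10 TPM in mock libraries (median 2.48 TPM), with a log2 difference of -0.09 (95% interval -0.24 to 0.06, adjusted p = 0.42 by limma). The interval of *cdd-1* is wide enough to hold differences as large as that of *dhfr-1*.

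Of the 9 genes tested, 6 were therefore lower in K-NAA at an adjusted p under 0.05 and 0 were higher (0 also at an unadjusted p under 0.05), whereas 19.8% of the 13813 genes tested were lower and 9.48% were higher by the same rule. The median log2 fold change of these 9 genes was -0.09, against -0.02 for all genes tested, and 8 of the 9 were below 0 against 56.4% of all genes. In bulk RNA of whole worms, fewer cells of a type and less RNA per cell cannot be told apart. The labels do not say whether the 2 plates of a time point came from separate populations. The p-values rest on the spread left after the time point and condition terms. This holds the spread between plates and the change of the difference over time, and may not measure that between populations. After median ratio rescaling 2045 genes were lower and 2081 higher, compared with 2741 and 1309 on the TPM as deposited, and 4 of the 9 genes (*dhfr-1*, *dut-1*, *rnr-1* and *upp-1*) were lower.

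**Figure D2:**
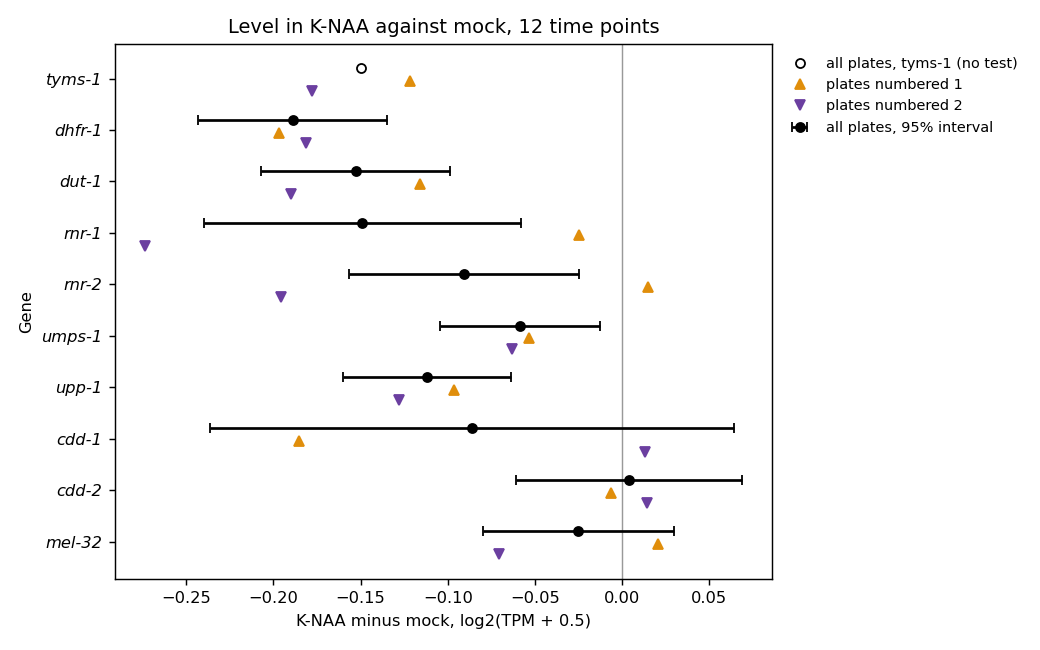
Difference of K-NAA minus mock on the log2(TPM + 0.5) scale (horizontal axis) for each of the 10 genes, with the value over all plates in black and, for the 9 genes tested, its 95% interval, the plates numbered 1 as orange triangles and the plates numbered 2 as purple inverted triangles. *rnr-1* (-0.02 and -0.27) and *rnr-2* (0.01 and -0.20) have the widest gaps between the plate numbers, whereas the values of *dhfr-1* nearly coincide (-0.20 and -0.18). The value of *tyms-1*, an open circle, is shown as a description.

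The difference of the ribonucleotide reductase genes was not the same in the 2 sets of plates. *rnr-1* held 169.3 ± 16.5 TPM in the K-NAA plates numbered 1 and 172.3 ± 16.9 TPM in the mock plates numbered 1, whereas it held 143 ± 16.8 TPM in the K-NAA plates numbered 2 and 172.2 ± 13.3 TPM in the mock plates numbered 2 (SD, n = 12 each). The plate numbered 2 was lower than that numbered 1 for *rnr-1* at 11 of the 12 time points in K-NAA and at 9 in mock, and for *rnr-2* at 10 in K-NAA and at 3 in mock. The log2 difference of K-NAA minus mock was -0.02 for *rnr-1* in the plates numbered 1 and -0.27 in the plates numbered 2, which differed by -0.25 (adjusted p = 0.0137 by limma, interaction of condition and plate number). For *rnr-2* the same values were 0.01 and -0.20, with a difference of -0.21 (adjusted p = 0.00815 by limma). By this rule 2 of the 9 genes tested were called, where 16.0% of all genes tested were, so the dependence was not particular to these 2. The interactions of both genes lost their calls after median ratio rescaling (-0.15 for *rnr-1* and -0.11 for *rnr-2*).

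Without the plates numbered 2, 3 of the 9 genes were lower in K-NAA (*dhfr-1*, *dut-1* and *upp-1*), and *rnr-2* had a value of 0.01. In that fit 8.73% of all genes were lower and 11.4% higher. Without the plates numbered 1, 5 of the 9 genes were lower, *rnr-1* and *rnr-2* among them, where 23.4% of all genes were lower and 5.54% higher. *dhfr-1*, *dut-1* and *upp-1* were lower in K-NAA with either set of plates.

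The summed levels of DNA replication and germline genes also differed with the plate number. The summed level of a list of 25 DNA replication genes was 2812 ± 108 TPM in K-NAA and 2756 ± 86.7 TPM in mock plates numbered 1, but 2664 ± 119.8 TPM in K-NAA and 2875 ± 103 TPM in mock plates numbered 2 (SD, n = 12 each). The summed level of 19 germline markers was 5723 ± 168 TPM in K-NAA and 5624 ± 210.3 TPM in mock plates numbered 1, and 5513 ± 240.1 TPM in K-NAA and 5861 ± 173 TPM in mock plates numbered 2 (SD, n = 12 each). K-NAA was thus above mock in the plates numbered 1 and below it in the plates numbered 2 for both sums, whereas the *rnr-1* means of the mock plates were nearly equal. The sums were not tested, and their part in the values of *rnr-1* and *rnr-2* was not tested.

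**Figure D3:**
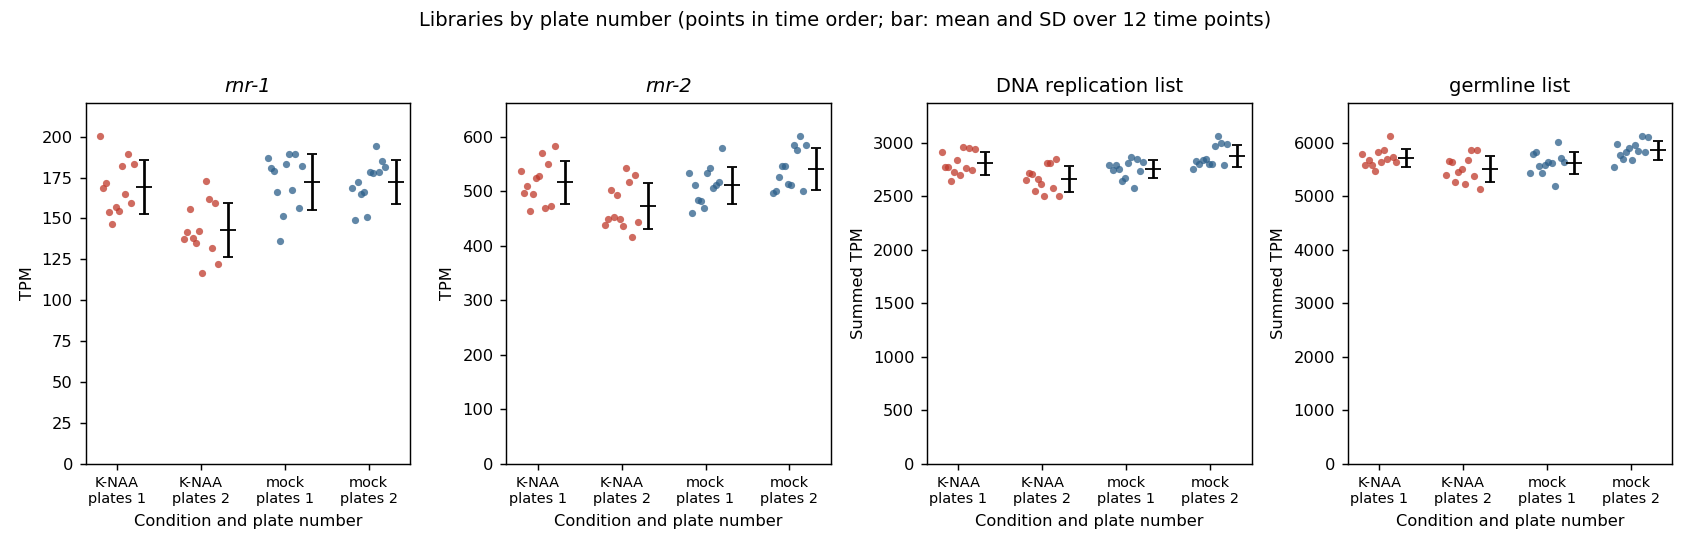
Level in TPM of *rnr-1* and *rnr-2*, and summed TPM of the DNA replication and germline lists, in each library by condition and plate number, with the mean and SD over the 12 time points as black bars. The K-NAA plates numbered 2 have the lowest mean in all 4 panels, at 143 TPM for *rnr-1* and 2664 TPM for the DNA replication list.

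Across the 24 K-NAA libraries, *dut-1*, *rnr-1*, *rnr-2* and *mel-32* varied together and with the DNA replication genes. *dut-1*, *rnr-1*, *rnr-2* and *mel-32* correlated with the summed DNA replication genes at Pearson's r of 0.92, 0.92, 0.88 and 0.88 in K-NAA, compared with 0.25, 0.55, 0.79 and 0.36 in mock. With the summed germline markers the same genes correlated at 0.81, 0.82, 0.72 and 0.80 in K-NAA, and at 0.05, 0.23, 0.44 and 0.25 in mock. *dut-1* and *rnr-1* correlated at 0.87 in K-NAA and 0.32 in mock. *dhfr-1* had 0.26 in K-NAA and 0.03 in mock with the DNA replication genes. With the summed hypodermis markers, *dut-1*, *rnr-1*, *rnr-2* and *mel-32* correlated at -0.59, -0.44, -0.73 and -0.32 in K-NAA. In mock these values were -0.56, -0.14, -0.69 and 0.04. With the body wall muscle sum the same genes had -0.475, -0.30, -0.57 and -0.29 in K-NAA, and -0.655, -0.008, -0.565 and 0.005 in mock. With the intestine sum they had -0.41, -0.34, -0.37 and -0.12 in K-NAA, and -0.66, -0.30, -0.305 and -0.05 in mock. In mock, *tyms-1*, *upp-1*, *dhfr-1*, *umps-1*, *cdd-1* and *cdd-2* had -0.775, -0.80, -0.62, -0.22, 0.17 and 0.01 with the hypodermis sum. The difference between the conditions was not tested. These are descriptions over libraries that share a scale of TPM and, within a condition, the time points and the plate numbers. The mock hypodermis sum went from 1826 and 1655 TPM at CT1 to 1170 and 1105 TPM at CT23. Courses over the day were not separated from these correlations.

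Over the day, *dut-1* was the clearest of the other genes in mock worms. In a test of the 24 h cosine and sine terms, 3 of the 9 genes passed at an adjusted p under 0.30 in mock worms, where 11.7% of all genes passed. *dut-1* had a 24 h range of 0.23, peaking at CT19.4 (adjusted p = 0.0301 by limma), *upp-1* 0.23, peaking at CT16.4 (adjusted p = 0.133 by limma) and *rnr-1* 0.19, peaking at CT19.9 (adjusted p = 0.27 by limma). At the stricter threshold of 0.05, *dut-1* alone of the 9 passed, where 1.12% of all genes did. It no longer passed at 0.05 after median ratio rescaling (adjusted p = 0.163 by limma) or quantile normalization (adjusted p = 0.0527 by limma), nor when any of 7 single mock libraries was left out, namely the plates numbered 1 of CT7, CT9, CT11 and CT23 and the plates numbered 2 of CT11, CT17 and CT19 (adjusted p up to 0.0596 by limma). The fitted mock ranges of the other 6 genes were between 0.03 (*cdd-2*) and 0.19 (*cdd-1*), none of which passed. The median mock range of the 9 genes was 0.13, against 0.16 for all genes tested.

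The K-NAA plates of *dut-1* held 237 ± 19.8 TPM from CT13 to CT23 and 227 ± 10.7 TPM from CT1 to CT11, and the mock plates 272 ± 21.8 TPM late and 244 ± 6.32 TPM early (SD, n = 12 each). *upp-1* held 112 ± 5.48 TPM late and 106 ± 5.61 TPM early in K-NAA worms, and 124 ± 8.98 TPM late and 113 ± 9.95 TPM early in mock worms (SD, n = 12 each). The late means were above the early means in both conditions for these genes, by more in mock.

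In K-NAA worms 0 of the 9 genes passed at 0.30 (limma, 0 also at an unadjusted p under 0.05), where 0.746% of all genes passed. The largest fitted K-NAA range was that of *cdd-1*, 0.27, followed by *rnr-1* with 0.14. A gene that passed in mock and not in K-NAA is not shown to differ between them, and the test of the difference in rhythm called 0 of the 9 genes (limma, 0 also at an unadjusted p under 0.05) and 0.00724% of all genes, which is 1 gene. The mock calls themselves did not hold under several settings: 0 of the 9 genes passed with a linear drift in the model, with a period of 20 h, with the time points as a factor, or with either set of plates alone, and 5 passed with a period of 28 h. Over all genes 0.0145% passed with the drift, 0.948% with 20 h, 1.75% with the time points as a factor and 18.3% with 28 h, while 0 genes passed with the plates numbered 1 alone and 13 with those numbered 2 alone (limma). *rnr-1* lost its call when any of 10 single mock libraries was left out (range 0.15 to 0.20).

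**Figure D4:**
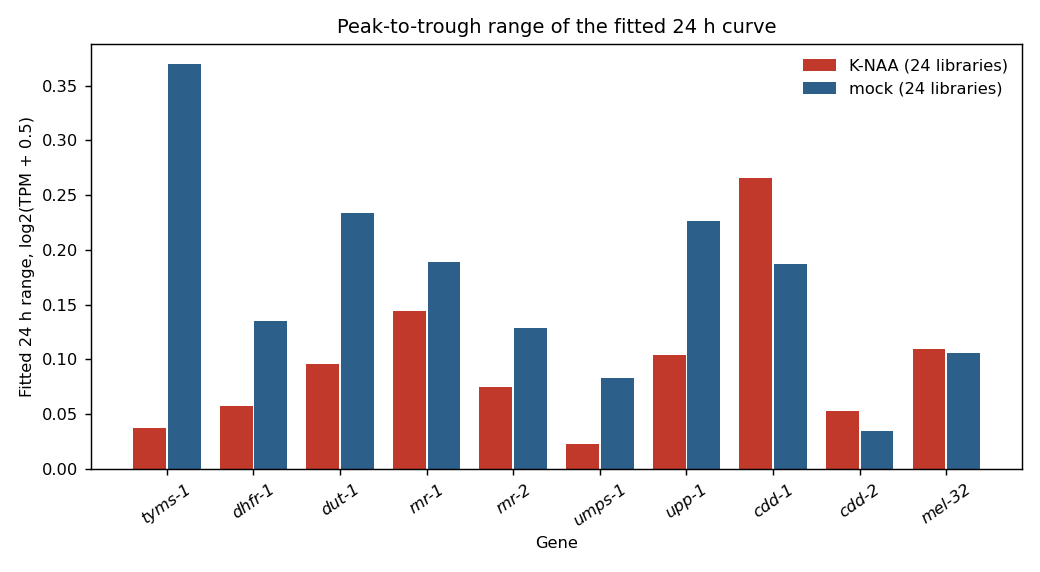
Peak-to-trough range of the fitted 24 h curve on the log2(TPM + 0.5) scale for each gene, K-NAA bars in red and mock bars in blue, from 24 libraries each. *tyms-1*, which was chosen for its course over the day, has the highest mock bar (0.37) and a K-NAA bar of 0.04. The bars of *dut-1* stand at 0.10 in K-NAA and 0.23 in mock, while *cdd-1* is higher in K-NAA (0.27) than in mock (0.19).

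Among the 10 genes, *dut-1* followed *tyms-1* most closely across the mock libraries. Its Pearson's r with *tyms-1* was 0.66 across K-NAA and 0.85 across mock libraries, and that of *dhfr-1* was 0.34 in K-NAA and 0.67 in mock. *upp-1* correlated with *tyms-1* at -0.09 in K-NAA and 0.68 in mock, and *rnr-2* at 0.73 in K-NAA and 0.65 in mock. *cdd-1* ran against it in K-NAA, at -0.63, compared with -0.14 in mock. The course of *tyms-1* over the day, which chose the set, enters these correlations in each condition. They are descriptions, and no difference between the conditions was tested.

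Across all 11209 genes averaging 1 TPM or more, the 5 whose levels followed *tyms-1* most closely over the 24 mock libraries were *C46A5.1*, *gln-6*, *zipt-7.1*, *trap-4* and *spsb-2*, with Pearson's r of 0.91, 0.89, 0.89, 0.89 and 0.88. Over the 24 K-NAA libraries the same genes had r of 0.48, 0.50, 0.36, 0.68 and 0.63. *gln-6* is named for glutamine synthetase, *zipt-7.1* encodes a zinc transporter and *trap-4* a subunit of the translocon-associated protein complex of the endoplasmic reticulum. *zipt-7.1* held 61.2 TPM late and 58.5 TPM early in K-NAA worms, and 83.4 TPM late and 65.0 TPM early in mock worms. *trap-4* held 702 TPM late and 668 TPM early in K-NAA worms, and 878 TPM late and 756 TPM early in mock worms. Choosing these genes for their likeness to *tyms-1* sets their mock pattern, so no test is given.

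Among the other genes of nucleotide and folate metabolism, the counts are set against the 19.8% of all genes that were lower and the 9.48% that were higher. Of 7 other pyrimidine genes, 2 were lower in K-NAA and 1 higher. *ctps-1*, the CTP synthase gene, held 67.7 ± 8.62 TPM in K-NAA and 73.7 ± 6.41 TPM in mock (SD, n = 24 each; log2 fold change -0.13, adjusted p = 0.0199 by limma). Its difference was -0.006 in the plates numbered 1 and -0.25 in the plates numbered 2 (adjusted p = 0.0156 by limma for the interaction), and its call was lost after median ratio rescaling (adjusted p = 0.0624 by limma) and quantile normalization (adjusted p = 0.164 by limma). *dhp-1*, a dihydropyrimidinase gene of pyrimidine breakdown, held 4.30 ± 0.943 TPM in K-NAA and 4.95 ± 0.81 TPM in mock (SD, n = 24 each; -0.19, adjusted p = 0.026 by limma), a call lost after median ratio rescaling (adjusted p = 0.0613 by limma) and with either set of plates alone. *pyr-1*, which encodes the enzyme that starts pyrimidine synthesis, was higher, with 15.4 ± 2.10 TPM in K-NAA and 13.5 ± 2.10 TPM in mock (SD, n = 24 each; log2 fold change 0.18, adjusted p = 0.0172 by limma). Its increase lay in the plates numbered 1 (0.41) and not in the plates numbered 2 (-0.04), and these differed (adjusted p = 0.00157 by limma for the interaction).

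Of 11 purine genes tested, 2 were lower and the other 9 did not pass. *atic-1*, which encodes the enzyme of the last steps of purine synthesis and uses a folate, had the largest difference of any gene in the pyrimidine, purine and folate lists, with 18.9 ± 1.84 TPM in K-NAA and 25.03 ± 2.67 TPM in mock (SD, n = 24 each; log2 fold change -0.39, adjusted p = 7.89e-10 by limma), and was lower at 12 of the 12 time points with nearly equal values in the plates numbered 1 (-0.39) and 2 (-0.40). *adss-1*, the adenylosuccinate synthase gene, held 134 ± 7.93 TPM in K-NAA and 147 ± 9.51 TPM in mock (SD, n = 24 each; -0.13, adjusted p = 0.000171 by limma), and its call was lost without the plates numbered 2 (adjusted p = 0.0618 by limma). Of 10 other folate genes tested, 2 were lower and the other 8 did not pass. The lower ones were *gcst-1* of the glycine cleavage system (-0.11, adjusted p = 0.000639 by limma, lost without the plates numbered 2 and after quantile normalization) and the methionine synthase reductase gene *mtrr-1* (-0.13, adjusted p = 0.0309 by limma), and *mtrr-1* was above 0 in the plates numbered 1 (0.05) and lost its call when any of 6 single libraries was left out.

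Of the 25 DNA replication genes, 9 were lower and 2 higher in K-NAA, against the same shares of 19.8% and 9.48% of all genes. The helicase genes *mcm-2* and *mcm-7* had log2 fold changes of -0.19 each (adjusted p = 2.77e-05 and 2.18e-05 by limma), and *div-1*, which encodes a subunit of DNA polymerase alpha, -0.13 (adjusted p = 0.000134 by limma). All of these were lower at 12 of the 12 time points and all differed between the plate numbers (adjusted p = 0.00133 to 0.0151 by limma for the interaction), with -0.10, -0.08 and -0.03 in the plates numbered 1 and -0.29, -0.29 and -0.23 in the plates numbered 2. Without the plates numbered 2 the calls of *mcm-2* and *div-1* were lost (adjusted p = 0.075 and 0.391 by limma). Of 14 genes of DNA damage response and uracil repair tested, 4 were lower and the other 10 did not pass. *hus-1*, a checkpoint clamp gene, had a log2 fold change of -0.26 (adjusted p = 9.84e-08 by limma), the checkpoint kinase gene *chk-1* -0.18 (adjusted p = 2.18e-06 by limma) and *fcd-2*, the homolog of FANCD2, -0.22 (adjusted p = 0.00277 by limma). The difference of *fcd-2* was -0.02 in the plates numbered 1 and -0.43 in the plates numbered 2 (adjusted p = 0.00276 by limma for the interaction), and its call was lost without the plates numbered 2 (adjusted p = 0.876 by limma). The DNA replication genes that were higher, named here after their values were seen, were the replication protein A gene *rpa-1* (0.14) and the origin licensing gene *cdc-6* (0.08), and *rad-51* of recombination was the fourth lower gene of the damage list (-0.09).

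**Figure D5:**
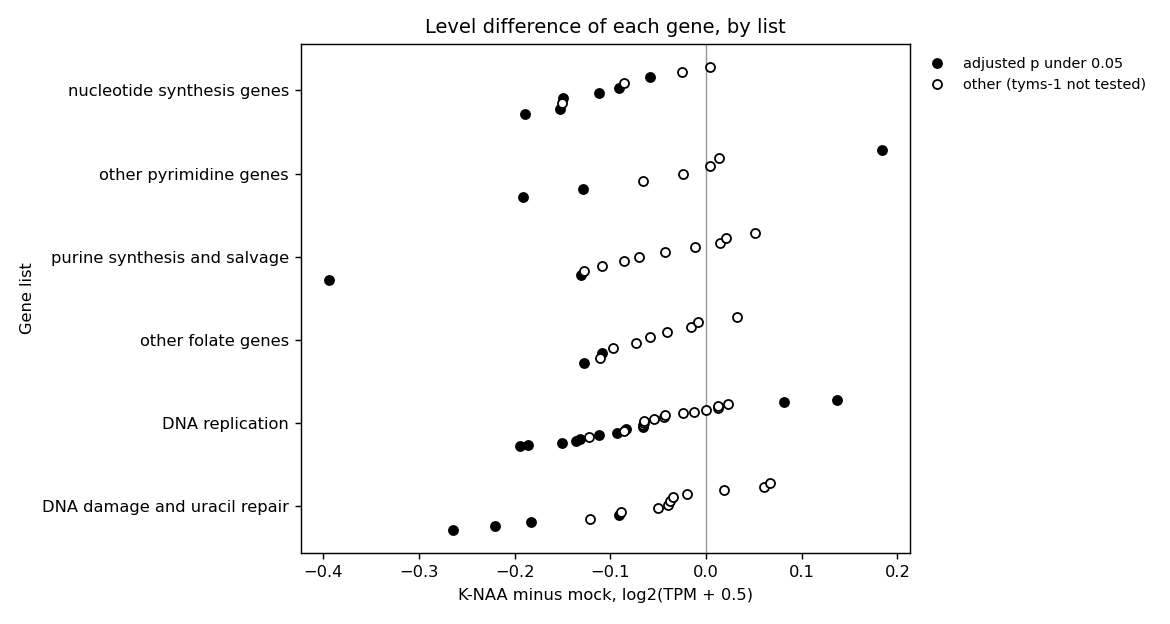
Difference of K-NAA minus mock on the log2(TPM + 0.5) scale of every gene tested (horizontal axis), by gene list, with the 10 nucleotide synthesis genes on top. Filled circles mark an adjusted p under 0.05, and open circles the other genes and *tyms-1*, which is shown as a description with no test. *atic-1* stands apart on the left of the purine list at -0.39, and *pyr-1* on the right of the other pyrimidine genes at 0.18.

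Some markers of the tissues in a whole worm differed between the conditions, and their counts have the same background of 19.8% lower and 9.48% higher. Of 19 germline markers 7 were lower and 2 higher in K-NAA, with *pgl-3* of the P granules at -0.14 (adjusted p = 2.97e-05 by limma), *him-3* of the meiotic chromosome axis at -0.12 (adjusted p = 0.00118 by limma) and the oocyte regulator *puf-5* at -0.11 (adjusted p = 0.000779 by limma). The summed germline level was 5136 to 6122 TPM in K-NAA libraries (median 5647 TPM) and 5198 to 6136 TPM in mock libraries (median 5745 TPM). Of 12 intestine markers 4 were higher and 1 lower, and their sum was 12500 to 15410 TPM in K-NAA libraries (median 13600 TPM) and 8935 to 13260 TPM in mock libraries (median 11240 TPM), led by the yolk protein genes *vit-2* and *vit-6* (0.32 and 0.31, adjusted p = 1.71e-11 and 1.07e-08 by limma) and the protease gene *asp-1* (0.44, adjusted p = 1.03e-05 by limma). The rise was not shared by the whole list: 5 of the 12 were below 0, and the median log2 fold change was 0.06.

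The germline markers that were higher were *glh-1* (0.07) and *syp-1* (0.15), and *mtl-2* was the lower intestine marker (-0.23) and *vha-6* the fourth that was higher (0.09), all of them named after their values were seen.

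Fewer genes of the remaining marker lists passed. Of 5 hypodermis markers tested 1 was higher (*col-19*, 0.18, adjusted p = 0.000632 by limma, lost without the plates numbered 2), of 10 body wall muscle markers 2 were higher (*myo-3*, 0.18, adjusted p = 0.00401 by limma, lost without the plates numbered 1, and *unc-22*, 0.21, adjusted p = 0.0487 by limma, a call lost when any of 35 single libraries was left out) and of 10 neuron markers 1 was lower (*snb-1*, -0.15, adjusted p = 3.45e-07 by limma). Hypodermis markers summed to 1149 to 1999 TPM in K-NAA libraries and 1023 to 1826 TPM in mock libraries, body wall muscle markers to 856 to 1355 TPM in K-NAA and 807.5 to 1161 TPM in mock, and neuron markers to 322 to 388 TPM in K-NAA and 342 to 421 TPM in mock. Most neuron markers did not go with *snb-1*: 3 of the 10 were below 0, and the median log2 fold change was 0.015. Embryo markers summed to 6.52 to 13.5 TPM in K-NAA libraries and 8.20 to 12.8 TPM in mock libraries, with 1 of 7 tested lower (*hlh-27*, -0.36, adjusted p = 0.00131 by limma, lost without the plates numbered 1). Sperm markers summed to 13.99 to 109 TPM in K-NAA libraries and 15.1 to 130.3 TPM in mock libraries, with 1 of 12 tested lower (*spe-44*, -0.17, adjusted p = 0.000264 by limma). *spe-44* went against most of its list, in which 2 of the 12 were below 0 and the median log2 fold change was 0.23. The markers not tested averaged under 0.25 TPM, *rol-6*, *bli-1*, *bli-2*, *dpy-13* and *wrt-2* of the hypodermis list, *tbx-35*, *med-1* and *med-2* of the embryo list and *spe-9* and *spe-11* of the sperm list. The part of the tissue markers in the values of the nucleotide synthesis genes was not tested.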

How the data were processed

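Whole adult JDW259 worms on FUdR were sampled at 12 time points with 2 plates per condition (24 K-NAA and 24 mock libraries). Reads had been quantified by the authors with Salmon on WormBase mRNA, and TPM of 19885 genes were deposited. No source used here states how transcript values became gene values. The build ce10 is the one listed by the submitters. The deposited tables also hold 7 columns per condition of the authors' own rhythm test, with p-values and amplitudes, which were not used. Groups were taken from the sample labels.

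The 13813 genes averaging 0.25 TPM or more were tested on log2(TPM + 0.5) with limma 3.58.1 in R 4.3.3, with a mean-variance trend, two-sided, with Benjamini-Hochberg adjustment over all of them. A fold change on this scale understates the change of low genes. The level test had the time point as a factor, the rhythm was tested by the cosine and sine of a 24 h period within each condition at the study's threshold of 0.30 and at 0.05, the difference in rhythm by the interaction with condition, and the plate numbers by their interaction with condition. The fits were run on simulated libraries with known changes and independent noise, scored at an adjusted p of 0.05. The 0.30 threshold was not scored, and noise shared by plates was not simulated.

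The 10 genes, the 12 other lists (154 of 156 names matched) and the tests were chosen with earlier results of these data known. The genes named by rule are the 10 members, up to 3 called genes of smallest p in each list, and the 5 genes most like *tyms-1*. *rpa-1*, *cdc-6*, *rad-51*, *glh-1*, *syp-1*, *mtl-2* and *vha-6* were added after their values were seen, and the markers not tested are also named. Positions are from the Ensembl annotation of WBcel235. Sequences were not analysed here. Alternatives were other pseudocounts, filters, scalings, periods, a drift, a replicate block, and plates, time points or libraries left out. Leaving out single libraries and fitting without the mean-variance trend were chosen after seeing the data.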

Additional observations from a re-analysis of the deposited data

Results flagged for a closer look

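The difference between K-NAA and mock worms differed between the plates numbered 1 and those numbered 2 for *rnr-1*, by -0.25 on the log2 scale, and for *rnr-2*, by -0.21, in a test of the interaction (adjusted p = 0.0137 and 0.00815 from limma). By the same rule 16.0% of all genes tested were called, so this was not particular to *rnr-1* and *rnr-2*. Over the alternatives other than leaving out a library, the adjusted p ranged between 0.0111 and 0.134 for *rnr-1* and between 0.00664 and 0.12 for *rnr-2*. The summed DNA replication genes were 2812 TPM in K-NAA and 2756 TPM in mock plates numbered 1, and 2664 TPM in K-NAA and 2875 TPM in mock plates numbered 2, and their part was not tested.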

How the results depend on the processing

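On the TPM as deposited, 6 of the 9 genes tested were lower in K-NAA, where 19.8% of all genes tested were lower. The count was 4 to 6 under the alternatives that kept all plates. It was 3 to 6 when plates, time points or libraries were left out, the 3 being without the plates numbered 2. Of all genes tested, 14.8% were lower after median ratio rescaling, 15% after quantile normalization and 8.73% without the plates numbered 2. The count of rhythmic genes in mock, 3, was 0 with a 20 h period, a linear drift or the time points as a factor, and 5 with a 28 h period. It was 0 to 3 when plates, time points or libraries were left out. Of all genes tested, 11.7% passed in the main fit and 18.3% with 28 h. The share was 0.948% with 20 h, 0.0145% with the drift and 1.75% with the time points as a factor. The 2 genes whose difference depended on the plate number became 0 after median ratio rescaling, while the share of all genes went from 16.0% to 12%. Without a rhythm call in K-NAA (0) or in the difference of rhythm (0), no alternative gave any. Of all genes tested, 0.746% and 0.00724% were called in these main fits.

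The plates were not paired by replicate number in the main fits. The correlation of the replicate differences of K-NAA and mock was -0.07 to 0.19 by time point. Such correlations of single plates cannot tell whether plates of the same number shared a batch. With a replicate block the count lower in K-NAA was 6, where 20.4% of all genes tested were lower.

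The log2 difference of *mel-32* was 0.0102 after median ratio rescaling, and that of *umps-1* was 0.00215 after quantile normalization. When plates, time points or libraries were left out, the log2 difference was -0.196 to 0.0147 for *rnr-2*, -0.185 to 0.0132 for *cdd-1*, -0.0105 to 0.0238 for *cdd-2*, -0.0708 to 0.0206 for *mel-32*, -0.0447 to 0.413 for *pyr-1* and -0.3001 to 0.0456 for *mtrr-1*. The cause was not tested. The depth behind the TPM is unknown, which limits low genes such as *cdd-1* most.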
